A study of Macaca mulatta with 16 samples.

Results

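The genes described here were 10 markers of the response to low oxygen and of glycolysis, measured by bulk RNA sequencing of the fetal lung of 16 rhesus macaques. They were 2 hypoxia-inducible factor subunits (HIF1A and EPAS1), 2 glucose transporters (SLC2A1 and SLC2A3), 3 enzymes that set the rate or the end product of glycolysis (HK2, PFKFB3 and LDHA), a brake on pyruvate oxidation (PDK4), and 2 genes used as markers of hypoxia (ADM and CA9). They were chosen by symbol: each of the 10 symbols matched exactly 1 Ensembl ID among the 22515 genes of the count table, and all 10 were among the 19199 genes that passed the filter on low counts. Each animal gave 1 library, and the groups were 4 preterm controls and 2 term controls without any intervention, 4 fetuses delivered 16 hours after 1 mg of intraamniotic LPS (E. coli O55:B5) (LPS 16h), 3 delivered 5 days after the same dose (LPS 5d), and 3 delivered 5 days after the same LPS with 0.125 mg/kg of betamethasone-acetate given intramuscularly to the dam (LPS + Beta-Ac). Delivery was at 131 to 135 days of gestation in the preterm controls, 130 to 131 days in LPS 16h, 131 to 134 days in LPS 5d, 131 to 132 days in LPS + Beta-Ac and 156 to 157 days at term. The controls received no sham injection, so the injection and the LPS cannot be told apart, and animals given Beta-Ac alone were not analysed here.

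Hypoxia-inducible factors are pairs of proteins in which an oxygen-labile alpha subunit (HIF1A or EPAS1, also called HIF2A) joins a stable partner. In normal oxygen, prolyl hydroxylases mark the alpha subunit for destruction, and in low oxygen the pair switches on genes for glucose uptake, glycolysis, vessel tone and pH control. The fetal lung develops at low oxygen tension, and the same genes are also known to be switched on by inflammatory signals and to be expressed strongly in activated neutrophils and macrophages, which depend on glycolysis. Since the control of the alpha subunits is mainly on the protein, which was not measured here, the RNA level of HIF1A or EPAS1 is not a measure of their activity.

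The total count per library was 30596371 to 48052891 in LPS 16h and 20169363 to 28348816 in the other 12 animals, so depth and the LPS 16h group cannot be told apart. Levels are given as CPM (read counts of a gene relative to the total of its library, with the totals scaled by TMM) and are compared between groups, not between genes. The LPS 16h libraries lay between -98.0 and -81.2 on the first principal component (35.3% of the variance) and the other 12 between 3.82 and 45.5. In a separate principal component analysis of those 12 animals, preterm control 209 and term control 200 stood apart on the second component (15.6% of the variance), at 53.6 and 54.1, where the others lay at or below 30.7. LPS 5d animal 240 stood apart in muscle and heart genes, whose summed level was 727 CPM there and 13.4 to 58.2 CPM in the other 15 animals. The surfactant gene SFTPC, a marker of the alveolar epithelium, was present in every library, with the lowest level at 1797 CPM.

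At 16 hours after LPS, 7 of the 10 genes differed from preterm controls: HIF1A, SLC2A1, SLC2A3, HK2, PFKFB3 and LDHA rose, and PDK4 fell. Their fold changes ranged from 2.14 for PFKFB3 to 6.39 for SLC2A3 among the genes that rose, and PDK4 fell to 0.340 of its control level. At 5 days, HK2 was the only gene of the 10 that was called, at 4.24-fold with LPS and 4.01-fold with LPS + Beta-Ac. HK2 was also the only one called at term, at 2.41-fold, a call that depended on which animals and which variance model entered the fit. Calls required an adjusted p (Benjamini-Hochberg over all genes tested, limma) under 0.05 together with a fold change of 2 or more.

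**Figure D1:**
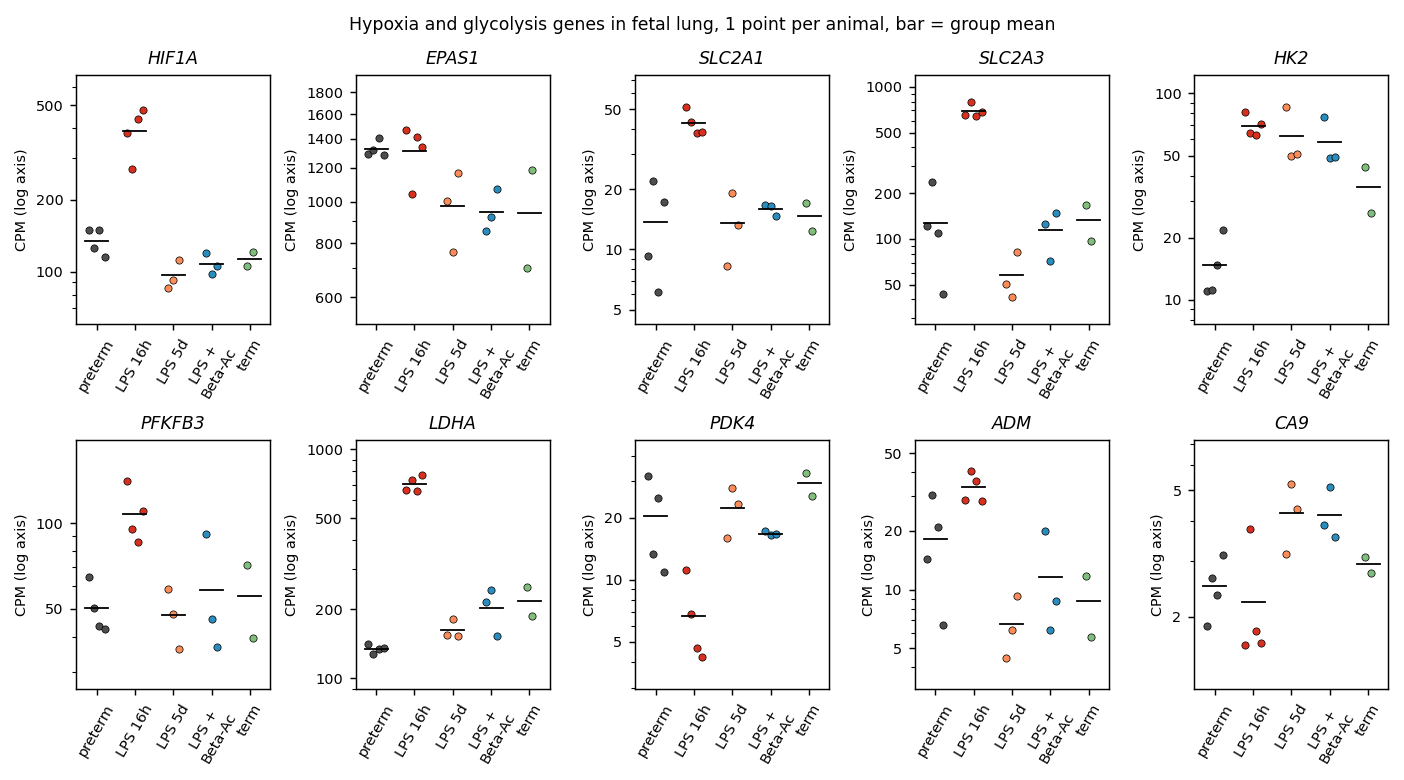
Level of each gene in CPM (log axis) by animal, with 1 point per animal and a bar at the group mean. The LPS 16h animals lie above every other animal for HIF1A, SLC2A1, SLC2A3 and LDHA, whereas for HK2 the LPS 5d and LPS + Beta-Ac animals lie at 48.5 CPM or more and the preterm controls at 21.9 CPM or less.

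Of all genes tested, 8.25% were called higher and 6.11% lower at 16 hours against preterm controls, and 6 and 1 of the 10 genes were called in these directions. The median log2 fold change of the 10 was 1.31 and that of all genes tested was -0.09. With libraries scaled by their total counts alone, the median of all genes moved to -0.29 and the share of higher calls among all calls moved from 57.4% to 39.4%. The 10 genes kept their directions with that scaling and 6 of the 7 their call, the exception being PFKFB3 (log2 fold change 0.90). All comparisons with preterm controls share the same 4 control animals.

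HIF1A, the oxygen-regulated subunit found in most cell types, measured 150, 126, 149 and 115 CPM in the preterm controls and 382, 271, 438 and 476 CPM in LPS 16h. Every LPS 16h animal was above every other animal of the study. The log2 fold change was 1.51 (SE 0.16, adjusted p = 3.00e-06). In LPS 5d HIF1A measured 85.1, 91.7 and 112 CPM, below all 4 preterm controls, but the log2 fold change of -0.49 (SE 0.17) did not pass (adjusted p = 0.0705). The LPS + Beta-Ac animals (120, 97.3 and 105 CPM) and the term controls (105 and 121 CPM) overlapped the preterm controls.

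EPAS1, the alpha subunit most abundant in endothelium and lung, measured 1295, 1319, 1410 and 1288 CPM in the preterm controls. It measured 1466, 1042, 1416 and 1339 CPM in LPS 16h, on both sides of the controls (log2 fold change -0.02, 95% interval -0.38 to 0.33, adjusted p = 0.922). The sign of this value changed with the scaling, to 0.02 with median-of-ratios factors. In LPS 5d (1005, 763 and 1168 CPM), LPS + Beta-Ac (857, 920 and 1068 CPM) and at term (700 and 1186 CPM), every animal lay below the lowest preterm control. The log2 fold changes of -0.46, -0.49 and -0.54 did not pass, with adjusted p values of 0.101, 0.0746 and 0.154. The summed level of 8 endothelial markers was 2765 to 3326 CPM in the preterm controls, and 2132 to 2707, 2344 to 2808 and 1973 to 2307 CPM in these 3 groups. In LPS 16h, where EPAS1 lay on both sides of the controls, this sum was 2173 to 2840 CPM. Its part in the EPAS1 values was not tested, and in bulk tissue fewer cells of a type and less RNA per cell cannot be told apart.

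The log2 ratio of HIF1A to EPAS1 within each library does not depend on how libraries are scaled. It was -3.11, -3.39, -3.24 and -3.48 in the preterm controls and -1.94, -1.94, -1.69 and -1.49 in LPS 16h, with no overlap. The mean difference was 1.54 (2-sided exact permutation p = 0.0286, the smallest that 4 against 4 animals allow, and 0.0857 after adjustment over the 24 ratio tests made). In LPS 5d the ratio was -3.56, -3.06 and -3.38, around the preterm values.

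Of the partners and sensors of these factors, none of the 10 rows of 9 genes was called by limma at 16 hours or 5 days against preterm controls, with 3 at an unadjusted p under 0.05 at 16 hours and 3 in LPS 5d (EGLN2 has 2 rows). Of all 19199 genes tested, 9017 at 16 hours and 5376 in LPS 5d had an unadjusted p under 0.05. ARNT, the stable partner, had a log2 fold change of 0.14 at 16 hours (adjusted p = 0.370) and VHL, the ubiquitin ligase subunit that removes the alpha subunits, one of -0.11 (adjusted p = 0.627). The prolyl hydroxylase EGLN3, itself a target of the factors, ranged from 57.9 to 142 CPM in the preterm controls and from 160 to 279 CPM in LPS 16h. Its log2 fold change of 0.91 (adjusted p = 0.0180) was under the fold limit. The other hydroxylase EGLN1 (0.66, adjusted p = 0.00488) and the inhibitory alpha subunit HIF3A (-0.68, adjusted p = 0.0100) were also under that limit. At term, 1 gene of the list rose, CITED2, an antagonist of the factors (log2 fold change 1.09, adjusted p = 0.0154). Its value was close to the fold limit and rested on 2 term animals (66.6 and 101 CPM, and 28.6 to 48.1 CPM in the preterm controls). At term 1.11% of all genes tested were called higher and 0.953% lower.

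SLC2A1, the widespread basal glucose transporter GLUT1, measured 9.27, 21.9, 6.14 and 17.2 CPM in the preterm controls and 51.4, 43.0, 38.1 and 38.5 CPM in LPS 16h. The groups did not overlap, and the log2 fold change was 1.80 (SE 0.33, adjusted p = 0.000630). The preterm controls spanned more than the later groups, which lay inside their range: 8.28, 19.2 and 13.3 CPM in LPS 5d, 16.6, 16.5 and 14.6 CPM in LPS + Beta-Ac, and 17.0 and 12.3 CPM at term. The adjusted p values of these 3 groups were 0.916, 0.515 and 0.804.

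SLC2A3, the high-affinity glucose transporter GLUT3 of neurons and leukocytes, measured 121, 237, 110 and 43.5 CPM in the preterm controls and 654, 800, 640 and 683 CPM in LPS 16h. The log2 fold change of 2.67 (SE 0.41, adjusted p = 0.000168) came with no overlap between the groups. It was 2.24 without preterm control 209, where HK2 had 2.50 and LDHA 2.39. In LPS 5d it measured 50.6, 41.5 and 82.7 CPM, below 3 of the 4 preterm controls. The log2 fold change of -0.96 (SE 0.44) did not pass (adjusted p = 0.176), but without preterm control 209, whose 43.5 CPM was the lowest of the controls, it passed (adjusted p = 0.0136). The LPS + Beta-Ac values of 125, 71.9 and 149 CPM and the term values of 168 and 97.3 CPM lay within the range of the preterm controls.

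The log2 ratio of SLC2A3 to SLC2A1 was 3.70, 3.43, 4.15 and 1.34 in the preterm controls and 3.67, 4.22, 4.07 and 4.15 in LPS 16h. The groups overlapped, so a larger change of one transporter than of the other was not shown (difference of means 0.87, exact permutation p = 0.200, adjusted p = 0.343). Against LPS 5d, where the ratio was 2.60, 1.11 and 2.63, the LPS 16h animals were all higher (difference 1.91, exact permutation p = 0.0286, adjusted p = 0.0857).

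The 9 other glucose and lactate carriers gave 3 higher calls and 1 lower call at 16 hours, where 8.25% and 6.11% of all genes tested were called. Their median log2 fold change was 0.41. SLC2A6, a transporter of the lysosome in leukocytes, rose the most of them, from 3.31 to 4.85 CPM in the preterm controls to 57.1 to 110 CPM (log2 fold change 4.22, SE 0.33, adjusted p = 1.31e-07). The lactate exporter SLC16A3 (MCT4) rose by 1.75 and the lactate carrier SLC16A1 (MCT1) by 1.82, and SLC2A12 fell by 1.42 on the log2 scale. At 5 days none of the 9 was called with LPS (4 at an unadjusted p under 0.05), and SLC2A6 (2.52, adjusted p = 0.000265) and SLC16A3 (1.02, adjusted p = 0.00180) were called with LPS + Beta-Ac. None was called at term (2 at an unadjusted p under 0.05). Of all 19199 genes tested, 5376 in LPS 5d and 3626 at term had an unadjusted p under 0.05, and 4.05% were called higher in LPS + Beta-Ac.

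HK2, the inducible hexokinase that traps glucose in the cell, measured 11.0, 11.2, 14.7 and 21.9 CPM in the preterm controls. It measured 81.2, 64.0, 62.8 and 70.8 CPM in LPS 16h, 85.6, 49.6 and 50.8 CPM in LPS 5d, and 76.7, 48.5 and 49.0 CPM in LPS + Beta-Ac. The term controls, at 44.1 and 26.3 CPM, lay between the preterm controls and the treated animals. No animal of the other 4 groups overlapped the preterm controls.

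At 16 hours the log2 fold change of HK2 was 2.29 (SE 0.25, adjusted p = 4.57e-06), at 5 days it was 2.08 (SE 0.27, adjusted p = 0.000374), and with LPS + Beta-Ac it was 2.00 (SE 0.27, adjusted p = 0.000199). LPS 16h and LPS 5d did not pass a test of their difference in HK2 (0.21, 95% interval -0.37 to 0.78, adjusted p = 0.587). Of all genes tested, 2.60% were called higher and 2.23% lower in LPS 5d, and 4.05% higher and 2.44% lower in LPS + Beta-Ac, and in each of these comparisons 1 of the 10 genes was called higher and 0 lower. The summed level of 7 alveolar type 2 markers also differed between these groups, at 6580 to 11443 CPM in the preterm controls, 9093 to 22832 CPM in LPS 16h, 15865 to 29684 CPM in LPS 5d, 17680 to 30660 CPM in LPS + Beta-Ac and 16876 to 22213 CPM at term, and its part in the HK2 values was not tested. The value in LPS 5d was 2.25 without animal 240 (adjusted p = 0.00211), and over all alternatives it lay between 1.85 and 2.29.

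At term, where 1.11% of all genes tested were called higher and 0.953% lower, HK2 had a log2 fold change of 1.27 (SE 0.31, adjusted p = 0.0343) and 1 of the 10 genes was called higher and 0 lower. The adjusted p was 0.288 without term control 200 (log2 fold change 0.89) and 0.0520 with limma-voom. It was also above the limit without preterm control 092 (0.0859), 101 (0.0748) or 113 (0.0709). With 2 term animals the precision is low, and the 95% interval ran from 0.62 to 1.92.

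The other hexokinases differed from HK2. HK1, the constant hexokinase of most tissues, had a log2 fold change of 0.92 at 16 hours, under the fold limit (adjusted p = 5.05e-06), and of -0.02 in LPS 5d (adjusted p = 0.943). HK3, the hexokinase of myeloid cells, ranged from 1.76 to 2.83 CPM in the preterm controls, 52.6 to 102 CPM in LPS 16h, 10.6 to 20.3 CPM in LPS 5d, 23.1 to 95.1 CPM in LPS + Beta-Ac and 5.05 to 69.3 CPM at term. It was called in all 4 groups, with log2 fold changes of 5.06, 2.69, 4.30 and 3.09. The log2 ratio of HK2 to HK1 was -2.70, -2.78, -2.35 and -1.87 in the preterm controls, between -1.20 and -0.88 in LPS 16h and between -0.58 and -0.01 in LPS 5d. HK1 measured 140 to 150 CPM in LPS 16h and 66.5 to 86.3 CPM in LPS 5d, and the LPS 16h animals lay below the LPS 5d animals in the ratio (difference -0.73, exact permutation p = 0.0286, adjusted p = 0.0857 over 24 tests).

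PFKFB3, which makes the activator of phosphofructokinase, measured 64.5, 50.5, 43.4 and 42.4 CPM in the preterm controls and 141, 95.3, 85.6 and 110 CPM in LPS 16h. The groups did not overlap and the log2 fold change was 1.10 (SE 0.27, adjusted p = 0.00570). It was close to the fold limit, and the call was lost without LPS 16h animal 026, the highest (0.98), as well as with total count scaling. In LPS 5d (58.9, 48.2 and 36.3 CPM), LPS + Beta-Ac (92.0, 46.2 and 36.9 CPM) and at term (71.3 and 39.7 CPM) the values overlapped those of the controls. The adjusted p values were 0.905, 0.828 and 0.909.

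LDHA, which turns pyruvate into lactate, measured 141, 127, 134 and 135 CPM in the preterm controls. In LPS 16h it measured 661, 733, 654 and 771 CPM, with a log2 fold change of 2.39 (SE 0.13, adjusted p = 3.88e-09). In all the later groups every animal was also above the preterm controls: 154, 182 and 153 CPM in LPS 5d, 214, 242 and 153 CPM in LPS + Beta-Ac, and 250 and 186 CPM at term. These were smaller differences. The log2 fold change was 0.28 in LPS 5d (adjusted p = 0.229). In LPS + Beta-Ac (0.57, adjusted p = 0.0125) and at term (0.68, adjusted p = 0.0330) it passed the limit on p but not the fold limit. Over the alternatives the adjusted p reached 0.0629 in LPS + Beta-Ac (without animal 249) and 0.291 at term (without animal 200, log2 fold change 0.47).

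LDHB, the subunit of the tissues that oxidise lactate, has a row of 79.9 to 692 CPM and a second row near 0, and the first was used here. Its log2 fold change was 0.48 at 16 hours (adjusted p = 0.369). The log2 ratio of LDHA to LDHB was -0.40, -1.12, 0.07 and -0.93 in the preterm controls and 1.67, 0.08, 1.62 and 1.87 in LPS 16h. The 4 LPS 16h animals were above the controls, but animal 029 lay just above preterm control 113 (exact permutation p = 0.0286, adjusted p = 0.0857).

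PKM, the pyruvate kinase, was not analysed here. Of 15 other glycolytic enzymes tested, 14 had a log2 fold change above 0 at 16 hours and 7 were called higher, as were 8.25% of all genes tested. Their median was 0.92 beside -0.09 over all genes. Beside HK3, the largest changes were those of ENO1 (1.74, SE 0.11), PGAM1 (1.57, SE 0.21) and PGK1 (1.52, SE 0.09), which act in the lower, energy-yielding steps. ENO1 ranged from 252 to 276 CPM in the preterm controls and from 854 to 944 CPM in LPS 16h. In LPS 5d, LPS + Beta-Ac and at term, HK3 was the only one of the 15 called, and the medians were 0.19, 0.25 and 0.05.

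**Figure D2:**
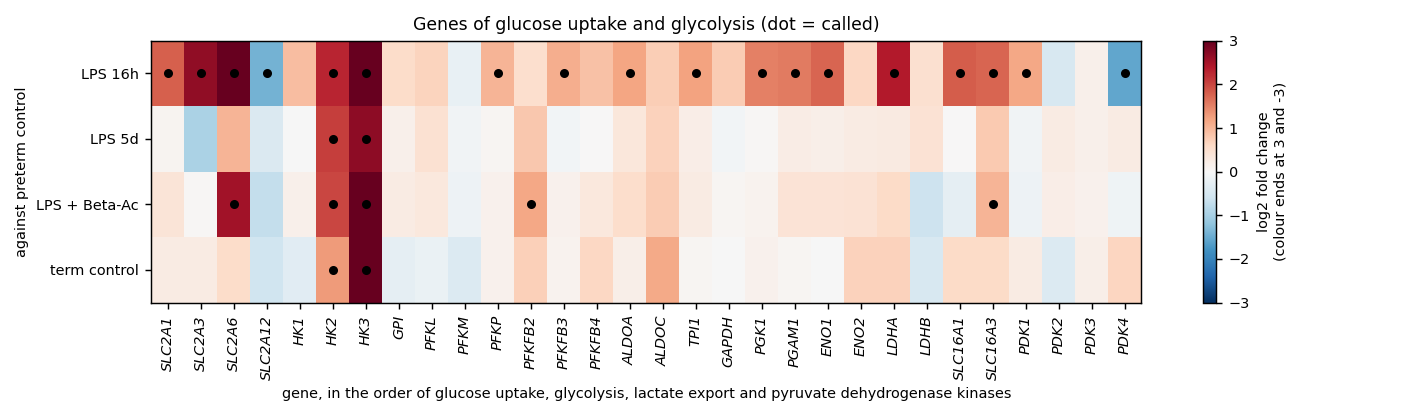
Log2 fold change of genes of glucose uptake, glycolysis, lactate export and pyruvate dehydrogenase kinases against preterm controls, with genes in columns, the 4 groups in rows, colour for the value (ending at 3 and -3) and a dot where a gene was called. The row of LPS 16h holds most of the dots, with other genes of the same steps uncalled, and HK2 and HK3 are the genes with a dot in all 4 rows.

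PDK4, a kinase that shuts off pyruvate dehydrogenase and so spares glucose, measured 32.0, 13.3, 25.0 and 10.9 CPM in the preterm controls and 11.1, 6.86, 4.66 and 4.24 CPM in LPS 16h. The highest LPS 16h animal was just above the lowest control, so the groups touched. The log2 fold change was -1.56 (SE 0.34, adjusted p = 0.00231), and the call was kept under every alternative, with adjusted p values from 0.000572 to 0.0160. In LPS 5d (15.9, 28.0 and 23.3 CPM), LPS + Beta-Ac (17.3, 16.4 and 16.6 CPM) and at term (33.1 and 25.6 CPM) PDK4 was not called, with adjusted p values of 0.732, 0.842 and 0.439.

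PDK1, a known target of HIF1A, rose from between 9.03 and 12.6 CPM in the preterm controls to between 18.7 and 29.8 CPM in LPS 16h (log2 fold change 1.15, SE 0.20, adjusted p = 0.000413). Of the 11 switches of pyruvate and fructose-bisphosphate metabolism tested, 7 had an adjusted p under 0.05 at 16 hours, as had 7385 of all 19199 genes tested. PDK1 was the only switch called higher and PPARGC1A, a regulator of mitochondrial genes, the only one called lower (-1.08). Of all genes tested, 8.25% were called higher and 6.11% lower there. The related kinases PDK2 (-0.49, adjusted p = 0.0412) and PDK3 (0.16, adjusted p = 0.548) were not called. PFKFB2 was the only one called at 5 days, with LPS + Beta-Ac (1.16, adjusted p = 0.00320).

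ADM, which encodes the vessel-dilating peptide adrenomedullin, measured 14.3, 30.5, 20.9 and 6.59 CPM in the preterm controls and 28.9, 40.3, 35.9 and 28.5 CPM in LPS 16h. The groups overlapped through preterm control 101, and the log2 fold change of 1.07 (SE 0.44) did not pass (adjusted p = 0.0699). It passed without that control (1.39, adjusted p = 0.0254) and with limma-voom (1.11, adjusted p = 0.0360), but was 0.66 (adjusted p = 0.204) without preterm control 209, the lowest control, and 0.87 (adjusted p = 0.115) with total count scaling. In LPS 5d ADM measured 4.47, 6.22 and 9.22 CPM, below 3 of the 4 controls. The log2 fold change of -1.29 (SE 0.48, adjusted p = 0.0882) passed without preterm control 209 (adjusted p = 0.0133). LPS + Beta-Ac measured 20.0, 6.20 and 8.79 CPM and term 11.7 and 5.73 CPM, neither of which was called.

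Of the 4 subunits of the adrenomedullin receptors, 2 fell at 16 hours, where 6.11% of all genes tested were called lower. CALCRL, the receptor itself, ranged from 456 to 839 CPM in the preterm controls and from 215 to 528 CPM in LPS 16h (log2 fold change -1.17, SE 0.40, adjusted p = 0.0316). It was also lower in LPS 5d (150 to 386 CPM, -1.50, adjusted p = 0.0308) and LPS + Beta-Ac (157 to 271 CPM, -1.68, adjusted p = 0.0148), without overlap with the controls. RAMP1, which turns CALCRL into a receptor for a related peptide, fell by 1.01 at 16 hours, just over the fold limit. Its groups overlapped (26.1 to 32.9 CPM in the preterm controls and 9.37 to 30.2 CPM in LPS 16h). RAMP2, the main partner for adrenomedullin, had -0.88, under the fold limit. KDR, an endothelial marker, fell by 1.18 at 16 hours, and was the only one of the 8 endothelial markers called there.

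CA9, a carbonic anhydrase of the cell surface used as a marker of hypoxic tissue, was the lowest of the 10 in counts, with 43 or more per library. It measured 1.87, 2.64, 2.34 and 3.13 CPM in the preterm controls and 1.63, 3.78, 1.81 and 1.66 CPM in LPS 16h. Animals 026, 035 and 038 lay below all the controls and animal 029 above them, and the log2 fold change was -0.23 (SE 0.27, adjusted p = 0.522). LPS 5d (3.16, 5.22 and 4.37 CPM) and LPS + Beta-Ac (3.88, 5.11 and 3.55 CPM) were above all 4 preterm controls, with log2 fold changes of 0.75 and 0.73 that did not pass (adjusted p = 0.0985 and 0.0953). The term controls, at 3.09 and 2.75 CPM, lay among the preterm controls. Of 6 other carbonic anhydrases tested, CA8 and CA13 were called higher and CA2 and CA14 lower at 16 hours, where 8.25% and 6.11% of all genes tested were called. CA13 had a mean of only 3.25 counts in the preterm controls, so its call is uncertain. CA2 was also lower in LPS 5d (-1.25, adjusted p = 0.00191).

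The wider list of 16 genes known to respond to hypoxia gave 6 higher calls and no lower call among 17 rows at 16 hours, with a median log2 fold change of 0.30, where 8.25% of all genes tested were called higher and 6.11% lower. Of the 17 rows, 9 had a log2 fold change above 0 and 8 below, and 11 had an adjusted p under 0.05, as had 7385 of all 19199 genes tested. The largest changes were those of ANGPTL4 (3.51), which blocks lipoprotein lipase, HMOX1 (3.25), the heme-degrading enzyme, TFRC (2.37), the transferrin receptor, and BHLHE40 (2.27), a transcriptional repressor. VEGFA, among the best known targets of the factors, was at 1145 to 1227 CPM in the preterm controls and 819 to 1228 CPM in LPS 16h, with a log2 fold change of -0.26 (adjusted p = 0.150). NDRG1 went from between 235 and 333 CPM in the preterm controls to between 142 and 194 CPM in LPS 16h (-0.75, adjusted p = 0.00122). P4HA2, which hydroxylates collagen, went from between 71.8 and 110 CPM to between 42.8 and 54.7 CPM (-0.92, adjusted p = 6.33e-05). Neither gene overlapped between the groups, and both were under the fold limit. VEGFA, NDRG1 and P4HA2 were chosen for naming with their values in view. In LPS 5d, LPS + Beta-Ac and at term, HMOX1 and BNIP3, a mitophagy receptor, were the only genes called. The shares of all genes tested that were called higher there were 2.60%, 4.05% and 1.11%. HMOX1 had log2 fold changes of 1.23, 2.07 and 1.16 there. BNIP3 has 2 rows that went apart: in LPS 5d the smaller one had 1.80 and the larger one -0.63, so its change is uncertain.

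**Figure D3:**
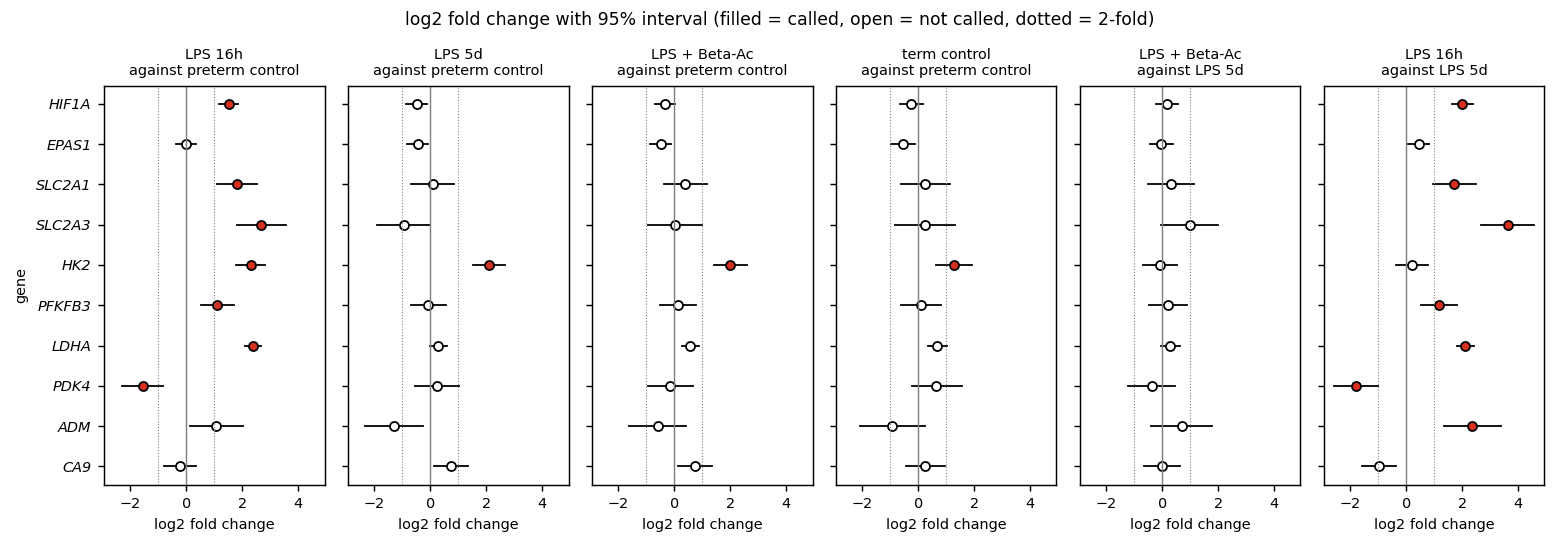
Log2 fold change of the 10 genes in the 6 comparisons, with the 95% interval of the limma fit, a filled point where a gene was called and dotted lines at 2-fold. HK2 has a filled point in all 4 comparisons with preterm controls, and no gene has one between LPS + Beta-Ac and LPS 5d.

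LPS 16h was also compared with LPS 5d. Injection was at 129 to 130 days of gestation in LPS 16h and at 126 to 129 days in LPS 5d, and depth differed as well. The time since injection therefore cannot be told apart from these. The comparison gave 6 higher calls and 1 lower call among the 10 genes, where 7.93% and 6.66% of all genes tested were called. SLC2A3 had the largest difference (log2 3.63, SE 0.44, adjusted p = 2.66e-05), followed by ADM (2.36, SE 0.48, adjusted p = 0.00147), LDHA (2.11, SE 0.14, adjusted p = 7.40e-08) and HIF1A (2.00, SE 0.17, adjusted p = 5.41e-07). SLC2A1 (1.72), PFKFB3 (1.18) and PDK4 (-1.80) completed the calls. In none of these 7 did the LPS 16h and LPS 5d animals overlap. The share of all genes tested without overlap was not counted, so this adds nothing to the calls. CA9 was lower at 16 hours (-0.98, adjusted p = 0.0150) but under the fold limit, and passed it without LPS 16h animal 029 (-1.26) or LPS 5d animal 239 (-1.18). With total count scaling the median of all genes moved from -0.04 to -0.22 and the share of higher calls from 54.4% to 38.0%, PFKFB3 (0.99) dropped under the fold limit and CA9 (-1.16) passed it.

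Adding Beta-Ac to LPS was compared with LPS alone at 5 days. None of the 10 genes was called, where 0.0885% of all genes tested were called higher and 0% lower, and at an unadjusted p under 0.05 the count was 0 with limma and 0 with limma-voom. The log2 difference was -0.08 for HK2 (95% interval -0.69 to 0.53), 0.16 for HIF1A (-0.23 to 0.56) and 0.29 for LDHA (-0.03 to 0.62). It was the largest for SLC2A3, at 0.98 (-0.03 to 2.00). The intervals are wide, so the groups were not shown to be alike. Of 7 genes known to respond to glucocorticoids none was called by limma in this comparison, 5 days after the dose. An unadjusted p under 0.05 was found for 2 of the 7 and for 924 of all 19199 genes tested. In LPS + Beta-Ac, animal 248 had the highest HK2, PFKFB3, ADM, HIF1A, PDK4 and, narrowly, SLC2A1 of its group. SLC2A3 and EPAS1 were highest in animal 255, and LDHA and CA9 in animal 249. The summed level of 10 neutrophil markers was 592 CPM in animal 248, against 182 and 235 CPM in animals 249 and 255. The part of these cells was not tested.

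Markers of leukocytes also differed between the groups. Of 10 neutrophil markers 7 were called higher in LPS 16h, and their summed level was 30.1 to 71.3 CPM in the preterm controls, 1611 to 2233 CPM in LPS 16h, 99.0 to 142 CPM in LPS 5d, 182 to 592 CPM in LPS + Beta-Ac and 124 to 180 CPM at term. Of 11 macrophage and monocyte markers 8 were called higher in LPS 16h, and the sums were 315 to 463, 1461 to 1695, 435 to 453, 641 to 975 and 430 to 507 CPM in the same order. Neutrophil and macrophage markers called higher numbered 3 and 5 in LPS 5d, 7 and 9 in LPS + Beta-Ac, and 3 and 1 at term. HK2 was the only one of the 10 genes called in each of these later groups. The shares of all genes tested that were called higher were 8.25% in LPS 16h, 2.60% in LPS 5d, 4.05% in LPS + Beta-Ac and 1.11% at term. MARCO, a macrophage receptor, had 0 counts in all 4 preterm controls, and MMP8, a neutrophil collagenase, was at 0 to 0.0710 CPM there and at 40.0 to 186 CPM in LPS 16h. S100A9 (776 to 1197 CPM) and S100A8 (381 to 655 CPM) were the largest parts of the neutrophil sum in LPS 16h. The neutrophil markers CXCR2, MPO and ELANE overlapped between LPS 16h and the preterm controls. The summed level of 6 alveolar type 1 markers was lower in LPS 16h (1426 to 1689 CPM against 3852 to 4446 CPM in the preterm controls). Of these 6, 4 were called lower, where 6.11% of all genes tested were called lower. CAV1 was the largest part of this sum, with means of 2062 CPM in the preterm controls and 639 CPM in LPS 16h. PDPN did not fall, with means of 119 and 128 CPM in the same order. None of the 6 erythroid markers was called in LPS 16h by limma, and 1 had an unadjusted p under 0.05, as had 9017 of all 19199 genes tested. The part of these cells in the levels of the 10 genes was not tested.

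**Figure D4:**
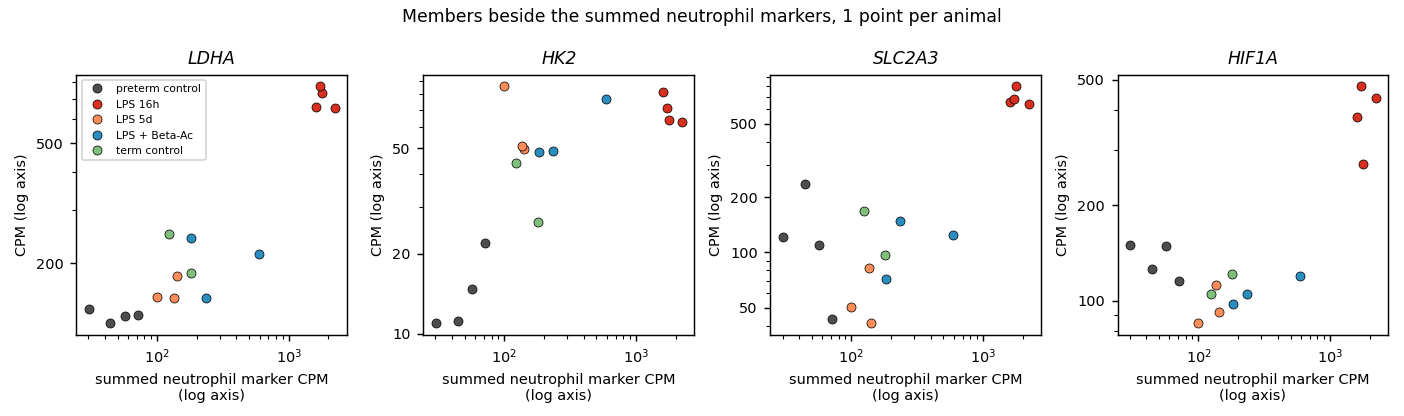
Level of LDHA, HK2, SLC2A3 and HIF1A in CPM against the summed CPM of 10 neutrophil markers, both on log axes, with 1 point per animal. LPS 16h animals lie at 1611 CPM or more of neutrophil markers and at 62.8 to 81.2 CPM of HK2, and LPS 5d animals lie at 99.0 to 142 CPM of neutrophil markers and at 49.6 to 85.6 CPM of HK2.

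Over the 16 animals the log2 CPM of most of the genes that rose at 16 hours followed each other, which describes mainly the distance of LPS 16h from the other groups. HIF1A and LDHA had r = 0.868 over all animals but -0.123 after the group means were subtracted. SLC2A3 and ADM had r = 0.880 and kept 0.826 within groups, and HIF1A and CA9 had -0.727 and -0.696. The value of HIF1A and CA9 within groups leans on LPS 16h animal 029. That animal had the lowest HIF1A (271 CPM) and the highest CA9 (3.78 CPM) of its group, and r was not computed without it. No p is given, since the values share libraries and groups. The genes with a symbol most alike over the 16 animals were DNAJC3, TOP1 and ZNF267 for HIF1A (r = 0.990, 0.989 and 0.988), and PLAUR, IL1RN and IL6 for LDHA (0.989, 0.981 and 0.981). They were PLA1A, SPINT1 and CD74 for HK2 (0.925, 0.920 and 0.919), and ITGA6, MCC and TOP2B for EPAS1 (0.960, 0.929 and 0.920). IFNGR1 and PMAIP1 were among the 3 most alike for both SLC2A3 (0.957 and 0.945) and ADM (0.921 and 0.916), with STAMBPL1 (0.947) and DLL4 (0.914) as the remaining ones. P2RY6 led for SLC2A1 (0.904), TP53INP2 for PFKFB3 (0.888), CYBRD1 for PDK4 (0.935) and ANG for CA9 (0.921).

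**Figure D5:**
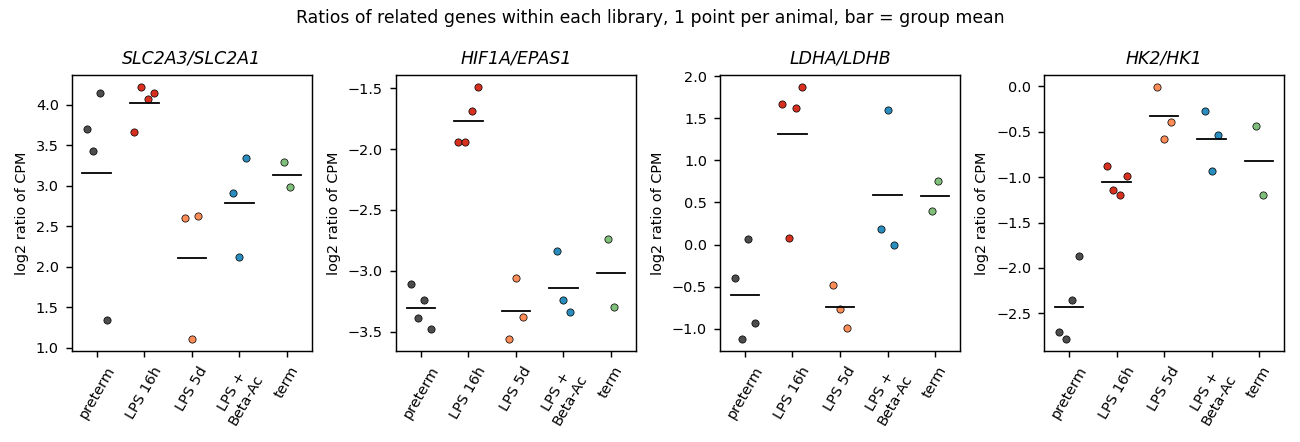
Log2 ratio of CPM of 4 pairs of related genes within each library, with 1 point per animal and a bar at the group mean. The HIF1A to EPAS1 ratio of LPS 16h (-1.94 to -1.49) lies above all other groups, and the HK2 to HK1 ratio of all groups lies at or above -1.20 apart from the preterm controls, at -2.78 to -1.87.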

How the data were processed

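RNA from the lungs of 16 rhesus macaque fetuses, 1 library per animal, was grouped by the labels. The authors selected poly(A) RNA, sequenced 75 bp paired-end reads, assigned them with kallisto to the rhesus build Mmul_10, summarized them with tximport and used DESeq2. Tool versions and the annotation release were not given in the sources used here. Values deposited by the authors are whole-number counts per gene without normalization. The automatic check of units could not read the layout of the table, so the unit was recorded as other, no count model was run, and limma took the place of the planned one. Libraries were scaled with TMM (trimmed mean of M values, trimming 30% of log ratios and 5% of mean values). Log2 CPM with a prior count of 2 were fitted with limma 3.58.1 (trend and robust options) in R 4.3.3, with a mean per group over all 16 animals. The filter kept genes with at least 0.371 CPM, or 10 counts at the median depth, in 2 or more animals and with 15 or more counts overall. The limits of a call were 0.05 for the Benjamini-Hochberg adjusted p and 2 for the fold change. Tests were 2-sided, and adjusted p values of genes come from this limma fit. Ratios of 2 genes were compared with exact permutation tests. Of the gene IDs, 17256 have a symbol and 5259 have none. The 10 genes and the other lists were chosen with earlier results of these data known. All 10 genes were named, with up to 4 called genes per comparison and direction from each list of hypoxia or glucose metabolism genes, any gene of lists with at most 10 genes, and the most correlated genes of each. Genes with a mean under 4 counts in a group were given no fold change. The alternatives were other scalings, variance models, filters, prior counts, fold limits and sets of animals. The chi-square per degree of freedom between libraries of a group was 32.5 to 173, so no library repeated another, and spread between animals exceeded counting error. The steps were tested on simulated data. Sequences and coordinates are not printed, because no genome of the build of the files was used here.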

Additional observations from a re-analysis of the deposited data

Results flagged for a closer look

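In LPS 16h, CA9 stood at 3.78 CPM in animal 029 and at 1.81 CPM in the nearest of the other 3 animals, which is farther than Dixon's 95% limit for 4 samples allows (gap over range 0.880). Of 20 groups of 4 animals examined this way 1 was marked, and chance alone marks about 1 in 20. LPS 16h differed from LPS 5d, in a comparison where time, depth and age at injection cannot be told apart, for SLC2A3 (log2 difference 3.63), ADM (2.36), LDHA (2.11), HIF1A (2.00), SLC2A1 (1.72), PFKFB3 (1.18) and PDK4 (-1.80). PFKFB3 was under the fold limit there with total count scaling and without LPS 5d animal 242, at 0.99 each.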

How the results depend on the processing

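The count of called genes against preterm controls at 16 hours stayed between 6 and 8 when each animal was left out, and so did that of LPS 16h against LPS 5d. In LPS 5d it was 3 without preterm control 209 and term control 200, when SLC2A3 (-1.39, adjusted p = 0.0121) and ADM (-1.70, adjusted p = 0.0114) joined HK2, and 1 to 3 when single animals were left out. Without a fold limit it was 2 in LPS + Beta-Ac and 2 at term, LDHA being added. At term it was 0 with limma-voom, 0 with only the compared groups (HK2 adjusted p = 0.121), 0 without preterm control 209 and term control 200 (adjusted p = 0.100), and 0 to 1 when single animals were left out. The causes of these changes were not tested, and the fits that leave animals or groups out also hold fewer animals. No called gene changed direction.

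Genes that were not called changed sign as follows. EPAS1 at 16 hours had 0.02 with median-of-ratios scaling and 0.02 with only the compared groups. Without preterm control 209 and term control 200, PDK4 in LPS 5d had -0.01, SLC2A3 had -0.41 in LPS + Beta-Ac and -0.59 at term, and PFKFB3 had -0.39 at term. With single animals left out, the log2 fold change of EPAS1 at 16 hours ranged from -0.06 to 0.11. In LPS 5d it ranged from -0.24 to 0.43 for SLC2A1, -0.21 to 0.11 for PFKFB3 and -0.01 to 0.50 for PDK4. In LPS + Beta-Ac it ranged from -0.41 to 0.40 for SLC2A3, -0.24 to 0.40 for PFKFB3 and -0.40 to 0.12 for PDK4. At term it ranged from -0.07 to 0.54 for SLC2A1, -0.20 to 0.64 for SLC2A3 and -0.32 to 0.53 for PFKFB3. Between LPS + Beta-Ac and LPS 5d it ranged from -0.20 to 0.11 for EPAS1, -0.01 to 0.59 for SLC2A1, -0.30 to 0.17 for HK2, -0.19 to 0.47 for PFKFB3 and -0.21 to 0.15 for CA9. The lowest count of these genes in a library was 43, and an effect of depth was not tested. No paired analysis was possible because the groups share no animal number.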
